A study of Mus musculus with 30 samples.

Results

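Gene expression in the mouse heart at 2 weeks after birth (2W) was compared with that at 1 week (1W), across all genes of a count table. The comparison took 6 of the 30 libraries of the series, the 3 libraries of 2W and the 3 of 1W, chosen by their age labels alone. Both groups were hearts of wild-type mice that the labels give as untreated, so age was the only labelled difference between them. The other 24 libraries cover 8 further ages from E10.5 to 8W. They entered the choice of genes tested, the scaling between libraries and the shared estimate of spread, but not the contrast itself. They are cited here for the neighbouring ages, postnatal day 1 (P1) and 4 weeks (4W). RNA of each heart sample was selected on its poly(A) tails and sequenced. The labels give no strain or sex. They do not state that each library is from its own animal, and the p-values measure the spread between libraries alone, which may be technical.

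In the days between these ages the mouse heart leaves its last phase of cell division. Cardiomyocytes replicate DNA once more, often without dividing, and then grow by enlargement, while the fetal forms of contractile proteins are replaced by adult forms. Over the same period mitochondria and the internal membranes that carry calcium signals enlarge, thyroid hormone and glucocorticoid levels climb in the blood, and the pups live on fat-rich milk.

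Library totals were 36687572 to 45499578 counts at 1W and 27787149 to 31528274 at 2W. Levels are given as CPM, counts per 1e6 scaled by TMM factors, in the order of replicates 1, 2 and 3. Changes are given as log2(2W/1W) ± SE. A gene is said to have risen or fallen where the edgeR quasi-likelihood test gave a Benjamini-Hochberg adjusted p under 0.05, over all 19280 genes tested. Mitochondrially encoded transcripts took 8.12 ± 0.34% of the counts at 1W and 15.2 ± 1.57% at 2W (SD, n = 3 each). Xist without Y-linked transcripts was found in 1W replicates 2 and 3 and in 2W replicate 1, and Y-linked transcripts without Xist in the other 3 libraries. The 2W library of replicate 3 stood apart from the other 2W libraries. Of 11150 genes with at least 5 CPM in a 2W library, 169 lay more than 2-fold below both other 2W libraries in replicate 3, against 40 in replicate 2 and 7 in replicate 1. These 169 included 48 of the 71 genes of the lists for DNA replication and mitosis. Results are therefore also given without that library where it matters. In bulk tissue, fewer cells of a type and less RNA per cell cannot be told apart.

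Of the 19280 genes tested, 2996 rose (15.5%) and 2712 fell (14.1%), so 29.6% were called in either direction. At least 2-fold rises numbered 608 and falls 728. The 3 libraries of one age did not overlap the 3 of the other for 7759 genes (40.2%). Without 2W replicate 3, 2804 genes rose (14.2%) and 2591 fell (13.1%), and 4646 of the 5708 calls were made the same way. The median log2 change of all genes tested was -0.011. With scaling by library size alone it was -0.30, a shift of -0.29, and only 13.9% of the calls were then rises, against 52.5%. Changes below are therefore relative to the middle of all genes. Counts of list members below are to be read beside the 15.5% of all genes that rose and the 14.1% that fell. The plot of all tested genes shows rises and falls among low and high genes, with the mitochondrially encoded genes mt-Co1 and mt-Nd4 as the most abundant of the marked rises and Tnni1 and Myh7 as the lowest of the marked falls.

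**Figure D1:**
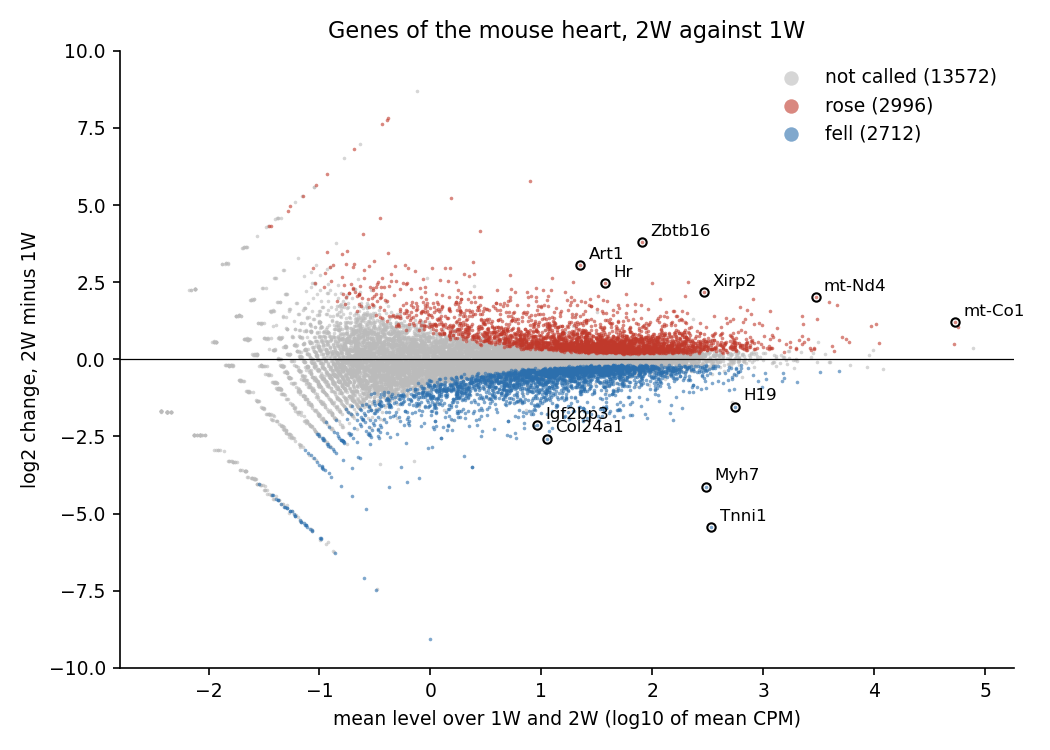
Each point is 1 gene, with the mean level over the 1W and 2W libraries on the horizontal axis (log10 of mean CPM) and the log2 change (2W minus 1W) on the vertical axis. Red points are the 2996 genes that rose, blue points the 2712 that fell and grey points those not called, with circles around 11 named genes. Genes with no count in these 6 libraries have no place on the axis and are left out.

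The largest falls among named genes were those of Tnni1 and Myh7, a troponin and a myosin of the fetal ventricle. Tnni1, on chromosome 1 (135779434 to 135810989 in GRCm38, forward strand), encodes slow skeletal troponin I, the inhibitory subunit of the thin filament in the fetal heart. It stood at 697, 684 and 612 CPM at 1W and 19.8, 9.90 and 16.5 CPM at 2W. The groups did not come near each other, and the change was -5.43 ± 0.19 (adjusted p = 1.9e-17). Its adult counterpart Tnni3 (chromosome 7, 4518305 to 4524229, reverse strand) had 1645, 1818 and 1734 CPM at 1W and 2249, 2082 and 2264 CPM at 2W, a rise of 0.34 ± 0.08 (adjusted p = 0.0018). Of the counts of both genes, Tnni3 took 72.3 ± 1.87% at 1W and 99.3 ± 0.202% at 2W. Myh7, the beta myosin heavy chain (chromosome 14, 54970684 to 54994626, reverse strand), had 836, 325 and 576 CPM at 1W and 41.4, 31.8 and 26.3 CPM at 2W. Its 1W libraries were spread wide, yet all lay far above the 2W libraries (-4.12 ± 0.24, adjusted p = 1.0e-11). The alpha chain Myh6 had 41544, 44471 and 43875 CPM at 1W and 65140.0, 58069 and 60620.0 CPM at 2W and rose by 0.50 ± 0.11 (adjusted p = 6.6e-04). With library size alone the rises of Tnni3 (0.06) and Myh6 (0.22) did not pass the test. Myh6 and Myh7 lie side by side and are alike in sequence, and how the counting divided reads between such pairs is not given in the sources used here. Myh8, the perinatal myosin heavy chain, had 9.13, 9.63 and 11.7 CPM at 1W and 2.58, 1.64 and 0.897 CPM at 2W (-2.55 ± 0.21), with the same limit for its near-identical neighbours.

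Not all genes of the fetal programme moved that way. Of 18 tested members of that list, 6 fell and 3 rose, against 14.1% and 15.5% of all genes, with a median of -0.15. Nppa, atrial natriuretic peptide, had 568, 601 and 602 CPM at 1W and 941, 882 and 609.9 CPM at 2W and rose (0.46 ± 0.12, adjusted p = 0.0041), though not without 2W replicate 1 (0.34) or with library size alone (0.17). Nppa is also 1 of 10 atrial cardiomyocyte markers, of which 4 rose and none fell (median 0.33). By library size alone 2 rose and 2 fell, with a median of 0.046. Whether the Nppa rise goes with atrial markers or with the fetal programme was not tested. Nppb had 49.3, 81.5 and 111 CPM at 1W and 103, 157 and 46.3 CPM at 2W, with overlapping groups (adjusted p = 0.55). Acta1, skeletal actin, was called a rise (2.51 ± 0.59, adjusted p = 0.0028), but its libraries read 43.4, 60.6 and 85.4 CPM at 1W and 182, 856 and 40.0 CPM at 2W, so that 2W replicate 3 lay below all 1W libraries. Without that library the change was 3.04 ± 0.40, and without 2W replicate 2 it was 0.81 and not called. Ankrd1, a stretch-responsive repeat protein, had 449, 539.5 and 793 CPM at 1W and 710.0, 813 and 337 CPM at 2W and was not called (adjusted p = 0.87).

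Among the 24 tested genes of the adult sarcomere, 16 rose and 1 fell, with a median of 0.37 against -0.011 for all genes. By library size alone 7 rose and 3 fell, with a median of 0.08. The largest rise was Xirp2, an actin-binding protein of the intercalated disc and Z-disc region, at 99.0, 102 and 117 CPM at 1W and 383, 720.3 and 322 CPM at 2W (2.17 ± 0.22, adjusted p = 1.6e-07). All 2W libraries were above all 1W libraries, as the rule for the largest rises required, with replicate 2 far above the other 2W libraries. The Z-disc proteins Myoz2 (1.24 ± 0.08), Cmya5 (1.16 ± 0.17) and Tcap (1.11 ± 0.10) rose, as did Lmod2, which lengthens thin filaments (1.12 ± 0.14). Titin (Ttn), the elastic filament, had 68825, 65460.0 and 70989 CPM at 1W and 87690.0, 86153 and 88487 CPM at 2W without overlap, yet its change of 0.35 ± 0.16 was not called (adjusted p = 0.11). Myl2, the ventricular regulatory light chain, was the member that fell, from 5362 ± 358 CPM to 4164 ± 139.8 CPM (-0.36 ± 0.09, adjusted p = 0.0028).

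A share within a pair of related genes does not depend on scaling between libraries. Of 26 pairs of related genes, each with a member labelled the later form, 21 had no overlap between the ages. Of these, 18 had a higher and 3 a lower share of the labelled member at 2W. The 3 were Myl2 with Myl7, Myom2 with Myom1 and Jph2 with Jph1. The labels were not tested, and not all pairs, such as Igf1 with Igf2, are forms of the same protein. Among all genes tested, levels did not overlap for 40.2%, which is not a measure of shares. The exact permutation test of 3 against 3 libraries, two-sided, cannot go below p = 0.1. The 21 pairs without overlap reached that value (0.124 adjusted over the pairs). Rpl3l, the muscle form of ribosomal protein L3, took 1.88 ± 0.277% at 1W and 9.56 ± 0.334% at 2W of the counts of Rpl3l and Rpl3. Eef1a2, the elongation factor of mature muscle, took 9.27 ± 0.535% at 1W and 19.8 ± 1.26% at 2W of its pair with Eef1a1. Among the cytochrome oxidase forms, the muscle isoform Cox7a1 took 32.0 ± 1.31% at 1W and 46.6 ± 1.72% at 2W of its pair with Cox7a2 and Cox6a2 72.7 ± 1.31% at 1W and 82.2 ± 2.86% at 2W of its pair with Cox6a1. The hexokinase share of Hk2 was 34.2 ± 2.27% at 1W and 51.5 ± 3.40% at 2W, with Hk1 as the earlier form. The receptor share of Thrb over Thra was 5.83 ± 0.834% at 1W and 17.1 ± 1.94% at 2W. The share of Myom2 over Myom1 was lower at the later age, 52.4 ± 2.32% at 1W and 42.6 ± 7.07% at 2W. It was 36.1 ± 0.908% at 4W, so the label of Myom2 as the later form was not borne out at these ages. In the plot of shares, Tnni3 and Myh6 were nearly at their 4W shares by 2W, while Rpl3l and Eef1a2 stood below 45.0% and 46.4%, their means at 4W.

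**Figure D2:**
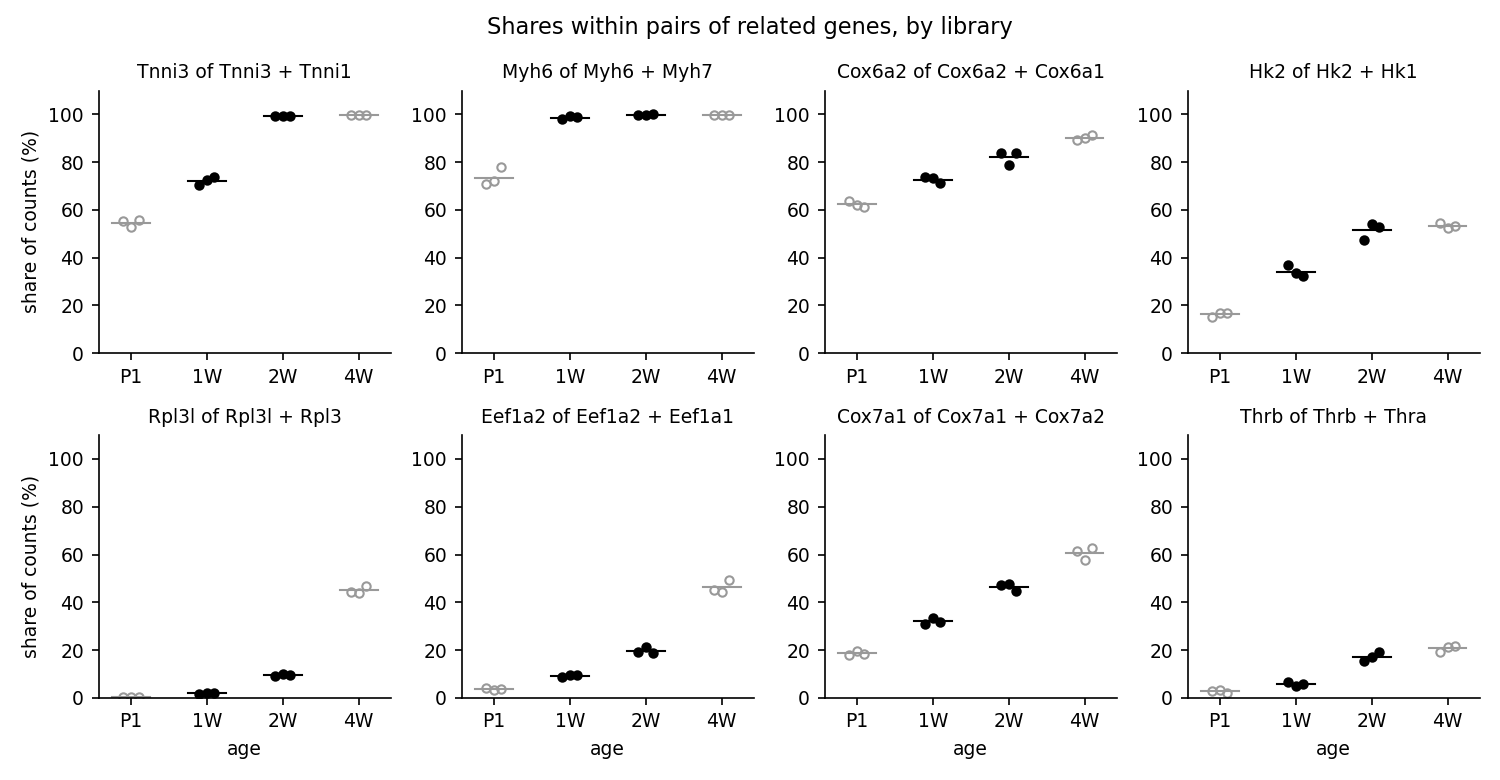
Each panel gives the share of the named gene in the summed counts of its pair (percent), by age (P1, 1W, 2W, 4W). Circles are libraries (filled for 1W and 2W) and lines are means of 3. The pairs shown were picked from the 26, and in every panel the 2W libraries lie above the 1W libraries. The 3 pairs with a lower share at 2W and the pairs that overlap are not shown.

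Most genes of DNA replication and of mitosis fell, to different depths in the 3 libraries of 2W. Of 36 replication and S phase genes, 28 fell and none rose, with a median of -0.86. Without 2W replicate 3, 21 fell and the median was -0.55. Their summed level was 1142, 1244 and 1319 CPM at 1W and 656, 1038 and 360.1 CPM at 2W. The 2W libraries all lay below the 1W libraries, but replicate 2 was close to them and replicate 3 was lowest for 35 of the 36 genes. Of 35 genes of mitosis and cytokinesis, 23 fell and none rose (median -0.91), and 23 fell without 2W replicate 3 (median -0.47). Without 2W replicate 2 that median was -1.46. Their sum was 1102, 1206 and 1357 CPM at 1W and 766, 1102 and 229 CPM at 2W. Here replicate 2 of 2W reached the lowest 1W library and replicate 3 was lowest for 35 of 35 genes, with a median ratio of 0.213 to the mean of the other two. For the other 39 pathway lists that ratio lay between 0.710 and 1.11. At 4W the mitosis sum was 124 to 136 CPM, so that 2W replicate 3 was nearer to 4W than to the other 2W libraries.

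Cdc6, which loads the replicative helicase on origins, had 11.5, 12.5 and 13.0 CPM at 1W and 3.10, 5.98 and 1.84 CPM at 2W (-1.76 ± 0.29, adjusted p = 7.7e-05). All 3 libraries of 2W were low. Mcm5, a subunit of that helicase, had 53.2, 62.5 and 62.8 CPM at 1W and 24.9, 45.8 and 11.5 CPM at 2W (-1.12 ± 0.29, adjusted p = 0.0054). Tyms, thymidylate synthase, had 11.1, 12.7 and 14.4 CPM at 1W and 5.09, 6.78 and 4.08 CPM at 2W (-1.26 ± 0.15), and its 2W replicate 3 was close to the others. Pcna, the sliding clamp, was called a fall with all libraries (-0.62 ± 0.19), but its change without 2W replicate 3 was -0.38 ± 0.16 and not called. The call was also lost without 1W replicate 2 (-0.58), 1W replicate 3 (-0.59) or 2W replicate 1 (-0.57). Bub1b, a kinase of the spindle checkpoint, had 48.2, 55.2 and 56.8 CPM at 1W and 24.7, 33.8 and 9.15 CPM at 2W (-1.24 ± 0.24, adjusted p = 4.0e-04). Mki67, the proliferation marker, had 105, 118 and 137 CPM at 1W and 97.1, 142 and 28.8 CPM at 2W and was not called (-0.43 ± 0.30, adjusted p = 0.32). Replicate 2 of 2W was above every 1W library for it, and its change was -0.01 ± 0.14 without replicate 3 and -0.94, then called, without replicate 2. Ccnb1, the mitotic cyclin B1, had 36.5, 38.7 and 40.8 CPM at 1W and 27.7, 35.8 and 3.37 CPM at 2W (adjusted p = 0.12). Its fall was called without 2W replicate 3 (-0.29 ± 0.11) and without 2W replicate 2 (-1.31). With the 6 samples alone in the fit, the changes of Mcm5 (-1.12) and Bub1b (-1.24) were the same size and not called. Of the CDK inhibitors and the Rb family, Rb1 rose from 26.2 ± 1.34 CPM to 36.8 ± 0.790 CPM (0.49 ± 0.09) and Rbl1 fell from 30.1 ± 3.25 CPM to 16.6 ± 7.12 CPM (-0.86 ± 0.19), and of 11 tested members of that list 4 rose and 3 fell, against 1 and 5 with library size alone.

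**Figure D3:**
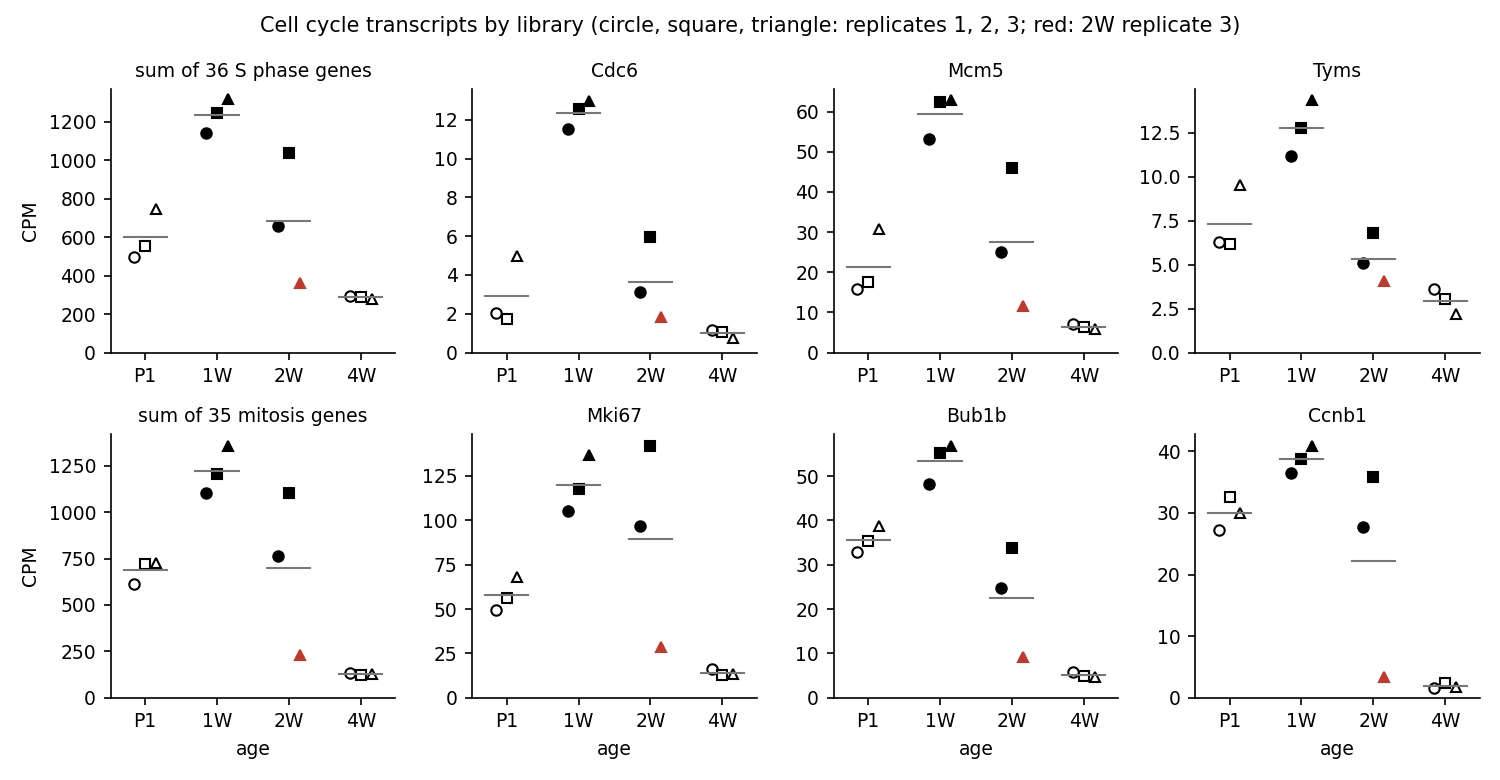
Levels in CPM by age (P1, 1W, 2W, 4W) for 2 summed lists and 6 genes, with circle, square and triangle for replicates 1, 2 and 3 and lines for means of 3. Filled symbols are 1W and 2W, and the red triangle is 2W replicate 3, which is the lowest 2W library in every panel.

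Sequences upstream of the start sites are shown for 4 of these genes because replication and mitosis genes are known to be controlled through short elements there. They are the 250 bases before the farthest upstream RefSeq start of each gene in GRCm38.p6, 5′ to 3′ on the gene's strand. Capitals mark matches on either strand. The E2F letters TTCCCGC and TTGGCGC were sought in Cdc6 and Mcm5. In Ccnb1 and Bub1b, CCAAT and the cell cycle homology region (CHR) letters TTTGAA and TTCGAA were sought. No CHR match was found in the Ccnb1 window. Cdc6 is at chr11:98907901-98908150 (forward strand), Mcm5 at chr8:75109259-75109508 (forward strand), Ccnb1 at chr13:100786487-100786736 (reverse strand) and Bub1b at chr2:118597961-118598210 (forward strand).
Cdc6: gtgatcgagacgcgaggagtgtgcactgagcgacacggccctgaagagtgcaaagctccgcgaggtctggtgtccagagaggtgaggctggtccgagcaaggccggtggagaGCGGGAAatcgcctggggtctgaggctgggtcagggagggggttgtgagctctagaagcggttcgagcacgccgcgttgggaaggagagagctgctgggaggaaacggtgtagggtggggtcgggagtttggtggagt
Mcm5: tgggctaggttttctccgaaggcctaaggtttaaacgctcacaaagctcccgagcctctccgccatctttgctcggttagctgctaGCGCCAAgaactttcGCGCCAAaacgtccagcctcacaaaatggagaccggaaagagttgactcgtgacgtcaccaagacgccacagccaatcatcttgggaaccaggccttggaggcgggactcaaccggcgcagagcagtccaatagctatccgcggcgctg
Ccnb1: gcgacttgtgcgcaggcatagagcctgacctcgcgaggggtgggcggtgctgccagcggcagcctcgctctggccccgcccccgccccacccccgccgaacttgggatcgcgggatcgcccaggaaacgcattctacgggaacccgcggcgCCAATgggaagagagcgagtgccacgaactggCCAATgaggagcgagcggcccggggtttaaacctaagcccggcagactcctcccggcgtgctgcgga
Bub1b: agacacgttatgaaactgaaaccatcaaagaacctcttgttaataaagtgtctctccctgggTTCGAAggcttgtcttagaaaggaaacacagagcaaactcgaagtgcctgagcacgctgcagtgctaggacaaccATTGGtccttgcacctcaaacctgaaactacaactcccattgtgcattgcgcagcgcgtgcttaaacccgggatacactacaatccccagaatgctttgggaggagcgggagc
The match in Cdc6 lies at bases -138 to -132 from the start site. Those in Mcm5 lie at -164 to -158 and -149 to -143, and those in Ccnb1 at -99 to -95 and -67 to -63. In Bub1b the CHR letters lie at -188 to -183 and CCAAT at -113 to -109. The table held windows for 29 of the 36 replication genes and 30 of the 35 mitosis genes. An E2F match was in 11 of the 29 (37.9%), against 5.74% of 27025 genes with a window. A CHR match was in 10 of the 30 mitosis windows (33.3%), against 17.5%, and CCAAT in 76.7%, against 34.5%. The letters GCGCCAA, the reverse complement of an E2F string, end in CCAA, so a stretch can match both E2F and CCAAT. The CCAAT letters were also in 69.0% of the replication windows, 63.2% of those of the TCA cycle and 55.6% of those of complexes III to V, and E2F matches were in 15.8% and 22.2% of the last 2 lists, in which no more than 1 gene fell. A match is only a description of the sequence.

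At the transverse tubule, rises outnumbered falls and were small. Of 16 genes of the transverse tubule and dyad, where the surface membrane meets the calcium store, 11 rose and 1 fell (median 0.38, or 0.092 with 5 rises and 4 falls by library size alone). Jph2, which ties both membranes together, had 309, 357 and 301 CPM at 1W and 431, 465 and 441 CPM at 2W (0.47 ± 0.08, adjusted p = 2.1e-05). Tcap, Mtm1 (0.79 ± 0.12), Nexn (0.71 ± 0.11) and Jph1 (0.70 ± 0.11) rose more. Bin1, which bends the tubule membrane, was the member that fell, with 16.1, 16.3 and 13.9 CPM at 1W and 11.6, 10.7 and 10.8 CPM at 2W (-0.49 ± 0.13, adjusted p = 0.0044). Of 28 genes of sarcoplasmic reticulum calcium handling, 9 rose and 2 fell, with a median of 0.08, or -0.20 with 4 rises and 9 falls by library size alone, and 0.041 without 2W replicate 2 and 0.14 without 2W replicate 3. The release channel Ryr2 had 4917, 4845 and 4641 CPM at 1W and 7135, 7017 and 7125 CPM at 2W (0.56 ± 0.12, adjusted p = 6.4e-04) and the pump Atp2a2 had 9395, 9508 and 8264 CPM at 1W and 12835, 12177 and 14076 CPM at 2W (0.52 ± 0.12). Hrc, a calcium-binding protein of the store, rose by 1.04 ± 0.17 and Trdn, triadin, by 1.00 ± 0.15. The sodium-calcium exchanger Slc8a1, the main route of calcium out of the cell, fell from 1108 ± 35.0 CPM to 685 ± 20.7 CPM (-0.69 ± 0.10, adjusted p = 3.7e-06). The T-type channel Cacna1g also fell (-0.42 ± 0.12), but not without 1W replicate 2 (-0.36) or 2W replicate 2 (-0.31). With library size alone Ryr2 (0.28), Atp2a2 (0.24) and Jph2 (0.18) were higher at 2W and not called.

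Of 22 potassium channel genes, 12 rose and 3 fell (median 0.44, or 0.15 with 7 rises and 5 falls by library size alone). Subunits of the fast transient outward current rose. Kcnd2 had 14.3, 10.8 and 12.5 CPM at 1W and 35.5, 34.1 and 34.6 CPM at 2W (1.47 ± 0.12, adjusted p = 2.3e-11), Kcnd3 had 2.18, 3.39 and 2.55 CPM at 1W and 11.7, 9.86 and 15.2 CPM at 2W (2.17 ± 0.22), and their partner Kcnip2 had 87.6, 81.4 and 80.7 CPM at 1W and 113, 146 and 103 CPM at 2W (0.53 ± 0.14). Kcnd2 and Kcnip2 had no overlap between the ages, which was so for 40.2% of all genes tested. Kcnd3 is among the 15 largest rises, which had to show no overlap to be named. Kcnip2 was not called without 2W replicate 2 (0.37) or with library size alone (0.25). Kcna4, of the slow transient current, fell from 14.0 ± 0.897 CPM to 8.40 ± 2.27 CPM (-0.74 ± 0.15). Kcne1, a subunit of the slow delayed rectifier, fell from 151 ± 9.50 CPM to 83.2 ± 8.09 CPM (-0.87 ± 0.10, adjusted p = 2.9e-08). Its partner Kcnq1 was just called (-0.26 ± 0.10). That call was lost without any 1 of the 1W libraries (-0.30 to -0.22), without 2W replicate 2 (-0.27) and without 2W replicate 3 (-0.19). Of 20 sodium and pacemaker channels and connexins, 7 rose and 4 fell (median 0.15, or -0.14 with 6 rises and 6 falls by library size alone). The sodium channel subunit Scn4b was low at both ages, at 0.248, 0.327 and 0.313 CPM at 1W and 3.30, 11.0 and 1.71 CPM at 2W (4.15 ± 0.57). The pacemaker channel Hcn2 rose from 18.6 ± 1.20 CPM to 52.7 ± 5.22 CPM (1.51 ± 0.15). Hcn4 had 8.58, 7.95 and 6.83 CPM at 1W and 8.23, 4.51 and 11.9 CPM at 2W and was not called (adjusted p = 0.81). The connexins Gja5 (-0.88 ± 0.15) and Gja1 (-0.40 ± 0.11) fell, Gja1 not without 2W replicate 2 (-0.29). In the intercalated disc list, 6 of 17 genes rose and 1 fell, with a median of 0.09. By library size alone it was -0.20 with 3 rises and 4 falls, and without 2W replicate 1 it was 0.036. The list was led by Igsf1 (1.33 ± 0.16), Lrrc10 (1.22 ± 0.15) and desmin, Des (0.66 ± 0.10). Membership of the list does not establish a place at the disc.

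Of 24 genes of adrenergic and muscarinic signalling, 10 rose and 2 fell (median 0.18, or -0.10 with 5 rises and 7 falls by library size alone, and 0.30 without 1W replicate 2 and 0.28 without 2W replicate 3). Adra1a, the alpha-1A receptor, had 1.52, 1.99 and 1.86 CPM at 1W and 7.99, 4.51 and 14.0 CPM at 2W (2.29 ± 0.30, adjusted p = 2.9e-06), with its 2W libraries spread wide but clear of 1W. Chrm2, the muscarinic receptor of the heart, had 67.2, 67.8 and 71.4 CPM at 1W and 165, 139 and 176 CPM at 2W (1.22 ± 0.09). The main beta receptor Adrb1 had 18.8, 17.1 and 15.1 CPM at 1W and 15.9, 8.89 and 16.2 CPM at 2W and was not called (adjusted p = 0.23), though with library size alone it fell (-0.60).

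Most protein genes encoded in mitochondrial DNA rose. Of the 13 protein genes encoded in mitochondrial DNA, 11 rose and none fell, with a median of 1.32 (1.04 with library size alone). The complex I subunit mt-Nd4 had 1110.5, 1308 and 1129 CPM at 1W and 5028, 4484 and 4724 CPM at 2W (2.00 ± 0.13, adjusted p = 1.6e-13). The cytochrome oxidase subunit mt-Co1 had 31501, 32176 and 32947 CPM at 1W and 72603, 72416 and 79244 CPM at 2W (1.21 ± 0.09). The members that were not called were mt-Atp6 (1.32 ± 0.57, adjusted p = 0.088) and mt-Nd3 (0.61 ± 0.50, adjusted p = 0.39). The nuclear genome holds near-identical copies of mitochondrial sequence, so these counts are uncertain. Nuclear genes moved less. Of 37 genes of complex I, 14 rose and none fell (median 0.28, or -0.0033 with 3 rises and 1 fall by library size alone). Of 35 genes of complexes III to V, 13 rose and 1 fell (median 0.26, or -0.023 with 2 rises and 5 falls by library size alone, and 0.17 without 2W replicate 2). Of 22 genes of the TCA cycle, 15 rose and none fell (median 0.38, or 0.092 with 7 rises and 2 falls by library size alone), with Ogdh, of the oxoglutarate dehydrogenase complex, at 1872, 2087 and 1862 CPM at 1W and 3001, 3724 and 2508 CPM at 2W (0.67 ± 0.10, adjusted p = 4.8e-06) and citrate synthase Cs at 0.64 ± 0.08 on the log2 scale. Of 30 mitochondrial ribosomal protein genes, 7 rose and none fell (median 0.16, or -0.13 with no rises and 4 falls by library size alone, and 0.018 without 2W replicate 2).

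In fatty acid oxidation, rises outnumbered falls. Of 35 genes, 28 rose and 1 fell, with a median of 0.47, or 0.18 with 16 rises and 3 falls by library size alone. Hadhb, the thiolase subunit of the trifunctional protein, had 769, 812 and 688 CPM at 1W and 1184, 1446 and 1165 CPM at 2W (0.74 ± 0.09, adjusted p = 6.4e-08). Cpt2, the inner carnitine palmitoyltransferase, rose by 0.74 ± 0.08 and Acad11 by 1.13 ± 0.10. Pdk4, which shuts off pyruvate dehydrogenase, had 432, 389 and 423 CPM at 1W and 1487, 870.0 and 1076 CPM at 2W (1.46 ± 0.19, adjusted p = 3.0e-06). The outer transferase of muscle, Cpt1b, had 712, 769 and 671 CPM at 1W and 762, 891 and 693 CPM at 2W with overlap and was not called (0.12 ± 0.09, adjusted p = 0.32). Acot1, a thioesterase, was the member that fell (-0.78 ± 0.13). Of 31 genes of fatty acid uptake and storage, 15 rose and 4 fell (median 0.23, or -0.053 with 9 rises and 9 falls by library size alone). Lpl, which frees fatty acids from blood lipoproteins, had 898, 930.0 and 818 CPM at 1W and 1764, 1789.8 and 1776 CPM at 2W (1.01 ± 0.10, adjusted p = 1.7e-09); its 2W libraries were close together. The uptake protein Cd36 rose from 879 ± 8.27 CPM to 1529 ± 156 CPM (0.80 ± 0.10). The lipase Pnpla2 (1.28 ± 0.15), Lpin1 (1.40 ± 0.10) and the triglyceride synthase Dgat2 (1.41 ± 0.12) rose, and Acsl3 fell from 29.9 ± 1.92 CPM to 11.6 ± 1.43 CPM (-1.37 ± 0.14). Angptl4, an inhibitor of lipoprotein lipase, also fell (-0.66 ± 0.18).

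For ketone bodies, Oxct1, the enzyme that lets a tissue burn them, had 295, 264 and 312 CPM at 1W and 621, 843 and 488 CPM at 2W (1.16 ± 0.12, adjusted p = 6.3e-09). Of the 8 ketone genes, 3 rose and 1 fell, against 5 and 2 without 2W replicate 3 and 1 and 2 with library size alone. Of 20 genes of branched-chain amino acid breakdown, 17 rose and none fell, with a median of 0.55, or 0.26 with 11 rises and 2 falls by library size alone. Aldh6a1, of the valine branch, had 64.2, 55.7 and 54.3 CPM at 1W and 127, 129.8 and 121 CPM at 2W (1.12 ± 0.10, adjusted p = 3.2e-10), and the phosphatase that switches the pathway on, Ppm1k, rose by 0.90 ± 0.13.

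Of 33 genes of glycolysis and glucose uptake, 10 rose and 5 fell, with a median of 0.12, which was -0.17 with 7 rises and 13 falls by library size alone, -0.056 without 2W replicate 2 and 0.24 without 2W replicate 3. The insulin-responsive transporter Slc2a4 had 86.6, 97.8 and 82.6 CPM at 1W and 150.2, 182 and 128 CPM at 2W (0.78 ± 0.10, adjusted p = 3.4e-07), and Slc2a1 had 9.96, 12.4 and 8.82 CPM at 1W and 9.18, 13.3 and 6.46 CPM at 2W with overlap (adjusted p = 0.71). Hexokinase Hk2 rose (0.84 ± 0.11) and Pygl (-0.84 ± 0.12) and Eno1 (-0.51 ± 0.09) fell. Of 24 regulators of metabolic transcription, 11 rose and 2 fell (median 0.27, or -0.02 with 9 rises and 5 falls by library size alone). Among them, the coactivator Ppargc1a had 118, 125 and 129.7 CPM at 1W and 237, 177 and 263 CPM at 2W (0.86 ± 0.11, adjusted p = 2.1e-07) and Ppara 28.7, 26.2 and 27.3 CPM at 1W and 36.1, 47.2 and 45.7 CPM at 2W (0.65 ± 0.12). Rxrg rose by 1.18 ± 0.16 and Esrrg by 0.42 ± 0.09. Esrra had 44.6, 45.4 and 42.5 CPM at 1W and 49.2, 54.8 and 49.7 CPM at 2W and was not called (adjusted p = 0.09).

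Sterol genes fell together. Of 24 genes of cholesterol synthesis and uptake, 17 fell and none rose, with a median of -0.54. Squalene epoxidase Sqle had 10.7, 12.3 and 12.2 CPM at 1W and 2.74, 4.55 and 3.81 CPM at 2W (-1.67 ± 0.23, adjusted p = 3.4e-06). Idi1, the isomerase that makes the second isoprenoid building block, also fell (-0.87 ± 0.19). Srebf2, the transcription factor known to drive these genes, had 43.4, 53.4 and 50.3 CPM at 1W and 28.3, 26.2 and 24.6 CPM at 2W (-0.89 ± 0.10, adjusted p = 1.8e-08). At 4W, Sqle was at 4.71 ± 1.23 CPM. Of 14 genes of fatty acid synthesis, 8 fell and 3 rose (median -0.41). Fasn (-0.63 ± 0.17) and the desaturases Scd2 (-0.68 ± 0.12) and Scd4 (-1.17 ± 0.26) fell, while Scd1 rose from 13.2 ± 0.962 CPM to 29.2 ± 9.34 CPM (1.15 ± 0.27) and the malic enzyme Me1 from 53.5 ± 2.68 CPM to 122 ± 6.61 CPM (1.19 ± 0.07). The desaturase genes are close paralogs, so their split is uncertain. The window before Idi1 (chr13:8885356-8885605 (forward strand)) is shown with its CCAAT matches in capitals, since CCAAT is the letter string bound by NF-Y, a known partner of the sterol factors.
Idi1: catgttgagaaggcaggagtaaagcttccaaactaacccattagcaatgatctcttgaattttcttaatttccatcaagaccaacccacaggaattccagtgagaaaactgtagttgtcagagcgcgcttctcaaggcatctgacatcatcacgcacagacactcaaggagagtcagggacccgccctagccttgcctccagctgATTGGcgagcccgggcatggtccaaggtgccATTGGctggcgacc
These matches lie at -45 to -41 and -14 to -10. Windows were found for 16 of the 24 sterol genes, and 14 of them (87.5%) held CCAAT on either strand, against 34.5% of all genes with a window.

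Genes known to respond to hormones included some of the largest rises. Zbtb16, a zinc finger factor induced by glucocorticoids (chromosome 9, 48654297 to 48836222, reverse strand), had 9.66, 10.2 and 12.8 CPM at 1W and 141, 154 and 157 CPM at 2W (3.79 ± 0.27, adjusted p = 8.0e-10), with the 2W libraries close together. Of 18 genes of the glucocorticoid list, 10 rose and 1 fell (median 0.60, or 0.31 without 2W replicate 2). By library size alone 7 rose and 2 fell, with a median of 0.31. Per1 had 20.2, 23.4 and 22.9 CPM at 1W and 80.1, 90.1 and 55.4 CPM at 2W (1.76 ± 0.12), Klf15 8.28, 7.90 and 7.77 CPM at 1W and 29.3, 30.4 and 27.3 CPM at 2W (1.86 ± 0.14) and Tsc22d3 59.8, 59.0 and 55.3 CPM at 1W and 115, 129.8 and 109.8 CPM at 2W (1.03 ± 0.10). Fkbp5, another known target, had 13.2, 11.7 and 13.7 CPM at 1W and 14.1, 26.7 and 16.5 CPM at 2W without overlap and was not called (adjusted p = 0.13). The P1 levels of Zbtb16, Per1, Klf15, Tsc22d3 and Fkbp5 were 63.1 ± 11.6 CPM, 191 ± 16.7 CPM, 34.9 ± 10.1 CPM, 121 ± 26.8 CPM and 56.1 ± 27.7 CPM, respectively. The receptor itself, Nr3c1, was not called (0.13 ± 0.08, adjusted p = 0.22). Of 16 thyroid hormone genes, 10 rose and 2 fell (median 0.51, or 0.23 with 7 rises and 4 falls by library size alone). The corepressor Hr, a direct target of the hormone receptors, had 11.7, 11.1 and 11.1 CPM at 1W and 60.3, 78.7 and 50.6 CPM at 2W (2.48 ± 0.18, adjusted p = 5.2e-11). Klf9 had 30.7, 34.5 and 28.6 CPM at 1W and 109.7, 102 and 115 CPM at 2W (1.80 ± 0.10, adjusted p = 1.2e-14). The receptor Thrb had 8.69, 6.59 and 7.43 CPM at 1W and 21.1, 18.3 and 25.5 CPM at 2W (1.52 ± 0.21) and Thra 122, 126 and 119 CPM at 1W and 117, 89.5 and 108 CPM at 2W, not called (-0.22 ± 0.09, adjusted p = 0.051), though a fall was called without 2W replicate 1 (-0.31), with DESeq2 (-0.21), with upper quartile factors (-0.25) and with the stricter filter (-0.22). The activating deiodinase Dio2 had 7.23, 6.59 and 8.44 CPM at 1W and 8.94, 8.17 and 7.54 CPM at 2W, with overlap (adjusted p = 0.71). Of 19 clock genes, 9 rose and 1 fell (median 0.37), Per1 among them and shared with the glucocorticoid list. By library size alone 6 rose and 3 fell, with a median of 0.085. Rora rose from 41.6 ± 2.99 CPM to 82.8 ± 12.8 CPM (0.99 ± 0.14) and Nfil3 fell (-0.54 ± 0.11). The hour of collection is not in the labels, so its part in these values was not tested. Nr1d1 overlaps Thra on the opposite strand.

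**Figure D4:**
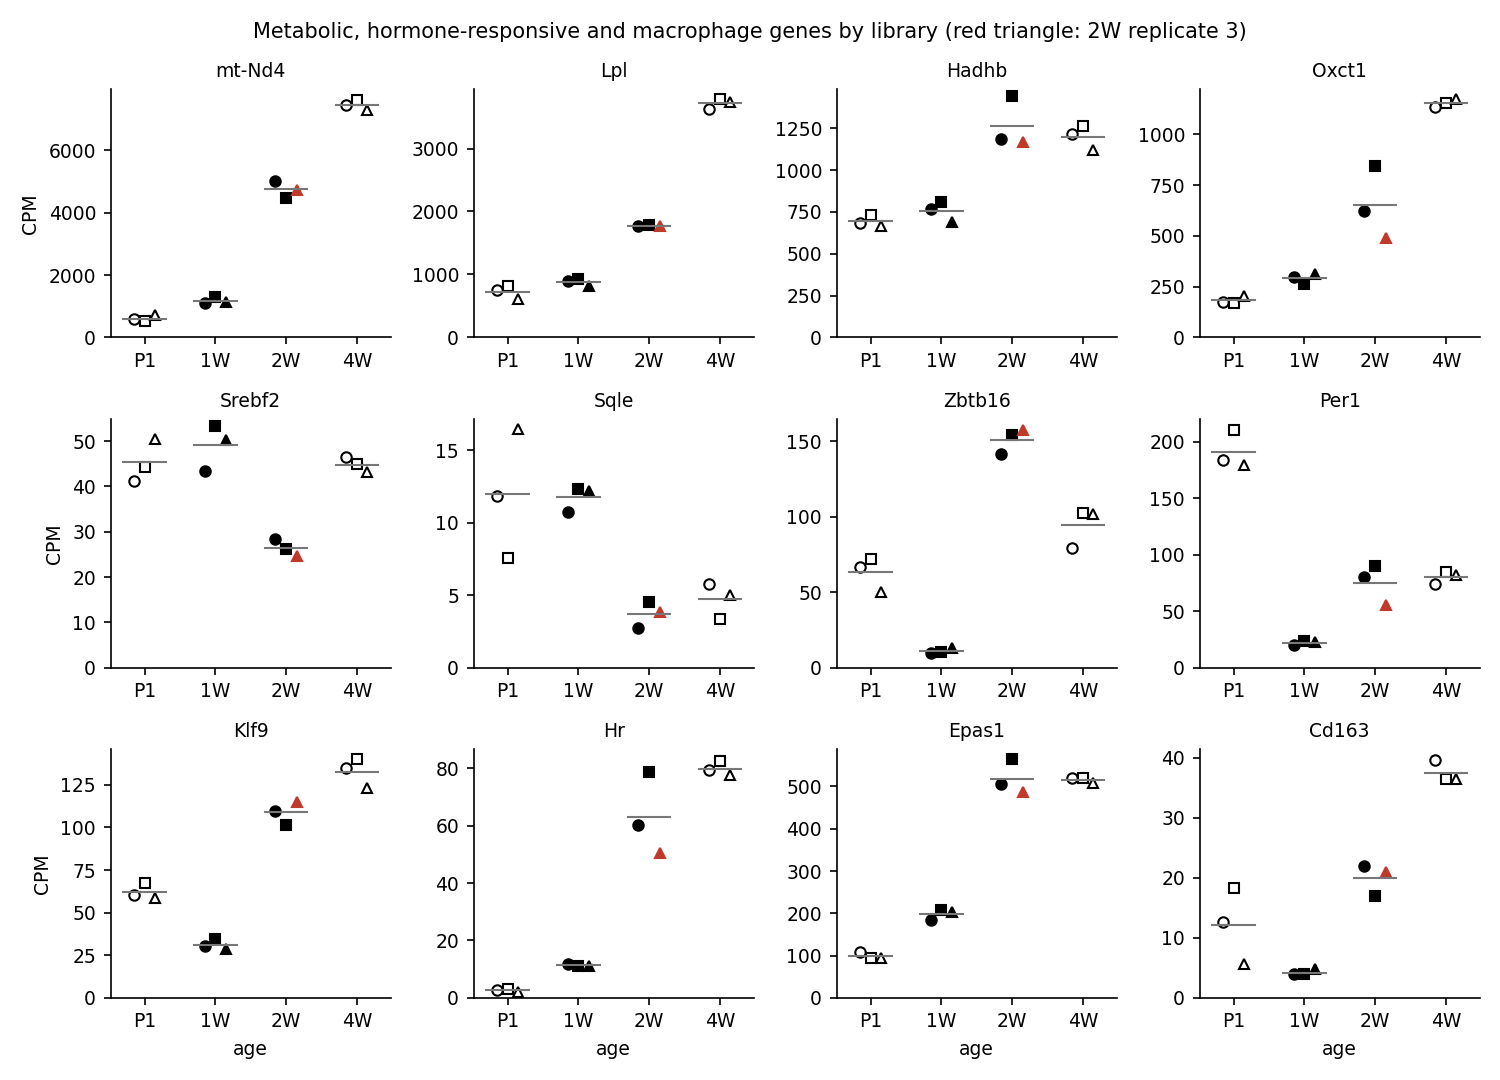
Levels in CPM by age (P1, 1W, 2W, 4W) for 12 genes, with circle, square and triangle for replicates 1, 2 and 3, lines for means of 3 and a red triangle for 2W replicate 3. Srebf2 and Sqle are lower at 2W than at 1W in every library, and the other 10 genes are higher in every library. Zbtb16, Hr and Cd163 are among the 15 largest rises, which were chosen for no overlap between the ages.

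Most imprinted growth genes fell. Of 25 imprinted growth genes, 19 fell and 2 rose, with a median of -0.70. H19, a long noncoding RNA, had 780.2, 815 and 868 CPM at 1W and 315, 229 and 306 CPM at 2W (-1.53 ± 0.10, adjusted p = 3.8e-13). Its neighbour Igf2, the fetal growth factor, had 453, 521 and 491 CPM at 1W and 319, 268 and 312 CPM at 2W (-0.70 ± 0.10, adjusted p = 3.0e-06). Mest fell from 243 ± 8.20 CPM to 62.7 ± 14.7 CPM (-1.96 ± 0.14), Plagl1 from 107 ± 2.85 CPM to 45.7 ± 7.55 CPM (-1.23 ± 0.09) and Peg10 from 12.3 ± 1.01 CPM to 5.13 ± 0.307 CPM (-1.26 ± 0.13). The members that rose were Snrpn (0.69 ± 0.10) and the matrix gene Dcn (0.52 ± 0.12). Of 21 genes of the insulin-like growth factor axis and its oncofetal RNA-binding proteins, 8 fell and 4 rose (median -0.27). Of all genes tested, 14.1% fell and 15.5% rose. Igf2bp3 had 14.9, 14.2 and 15.3 CPM at 1W and 3.74, 3.33 and 3.01 CPM at 2W (-2.14 ± 0.15, adjusted p = 5.3e-12), and Igf2bp1 (-1.93 ± 0.18) and the receptor Igf1r (-0.40 ± 0.12) fell. Igf1 had 52.1, 50.4 and 51.3 CPM at 1W and 55.8, 52.9 and 55.0 CPM at 2W and was not called (adjusted p = 0.54). Of 40 cytosolic ribosomal protein genes, 18 fell and none rose (median -0.32, or -0.61 with no rises and 40 falls by library size alone), and 11 fell without 2W replicate 3. Many of these have processed pseudogenes, so their counts are uncertain. Of 20 genes of serine and one-carbon synthesis, 7 fell and 1 rose (median -0.10, or -0.27 without 2W replicate 2 and -0.047 without 2W replicate 3). Without 2W replicate 3, 4 fell and 3 rose. Psat1 had 18.3, 20.9 and 20.5 CPM at 1W and 6.60, 12.3 and 5.43 CPM at 2W (-1.29 ± 0.19).

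Of 30 heart transcription factors, 10 fell and 4 rose (median -0.17, or -0.46 with 1 rise and 20 falls by library size alone, and -0.079 without 2W replicate 2). Among all genes tested, 14.1% fell and 15.5% rose. Sox4 had 155, 184 and 155 CPM at 1W and 89.3, 35.7 and 67.9 CPM at 2W (-1.36 ± 0.23, adjusted p = 1.2e-04) and Sox11 9.80, 9.03 and 10.2 CPM at 1W and 2.27, 3.03 and 2.60 CPM at 2W (-1.88 ± 0.16), both factors of immature cells. Gata4, a core factor of the heart, had 160.0, 188 and 171 CPM at 1W and 129, 125 and 114 CPM at 2W (-0.49 ± 0.07, adjusted p = 1.3e-06). Nkx2-5 had 32.1, 37.9 and 36.2 CPM at 1W and 32.0, 25.9 and 29.1 CPM at 2W and its fall was called (-0.29 ± 0.11, adjusted p = 0.038), but not without 1W replicate 2, 1W replicate 3, 2W replicate 2 or 2W replicate 3 (-0.29 to -0.22). Tbx3, of the conduction system, rose (0.71 ± 0.14). Of 18 splicing regulators, 3 rose and 5 fell, against 1 and 11 with library size alone. Mbnl1 rose from 149 ± 5.25 CPM to 225 ± 27.4 CPM (0.60 ± 0.08), while Mbnl3 (-0.68 ± 0.15) and Ptbp1 (-0.52 ± 0.08) fell.

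Matrix genes moved in both directions, and of all genes tested 14.1% fell and 15.5% rose. Of 36 interstitial collagen and matrix genes, 13 fell and 7 rose (median -0.19, or -0.48 with 2 rises and 23 falls by library size alone, and -0.092 without 2W replicate 3). The abundant collagens did not pass the test, Col1a1 with 1721, 1781 and 1676 CPM at 1W and 1681, 1779.7 and 1213 CPM at 2W (adjusted p = 0.45) and Col3a1 with 6369, 6523 and 6340.4 CPM at 1W and 5949.6, 5887 and 4912 CPM at 2W (adjusted p = 0.13), although with library size alone both fell (-0.43 and -0.49). Tenascin Tnc, of growing and injured tissue, had 199, 231 and 238 CPM at 1W and 58.7, 93.5 and 45.2 CPM at 2W (-1.76 ± 0.17, adjusted p = 1.5e-08) and Col12a1 121, 129.5 and 144 CPM at 1W and 33.1, 43.0 and 40.0 CPM at 2W (-1.76 ± 0.13). Postn, periostin, fell from 1255 ± 93.7 CPM to 678 ± 97.8 CPM (-0.89 ± 0.20). Col8a1 rose from 14.9 ± 1.21 CPM to 56.6 ± 29.9 CPM (1.92 ± 0.27), and 2W replicate 2 was above the other 2W libraries at 90.5 CPM. Of 15 elastic fibre genes, 8 fell and 2 rose (median -0.44). Fbn2, the fetal fibrillin, had 279, 282 and 281 CPM at 1W and 93.0, 82.0 and 105 CPM at 2W (-1.59 ± 0.11, adjusted p = 5.6e-13), and elastin, Eln, fell from 2499.7 ± 271 CPM to 1495 ± 390.1 CPM (-0.74 ± 0.20). Of 16 basement membrane genes, 6 rose and 3 fell (median 0.15, or -0.14 with 3 rises and 5 falls by library size alone, and 0.22 without 2W replicate 3). Col4a3 had 12.1, 11.9 and 15.1 CPM at 1W and 45.3, 41.4 and 41.8 CPM at 2W (1.72 ± 0.17, adjusted p = 3.8e-09) and its head-to-head neighbour Col4a4 21.7, 22.9 and 28.0 CPM at 1W and 71.5, 83.9 and 74.4 CPM at 2W (1.66 ± 0.13). The minor fibrillar collagens Col11a1 (19.7 ± 0.622 CPM to 3.90 ± 0.584 CPM) and Col24a1 (19.3 ± 1.59 CPM to 3.25 ± 1.17 CPM) and the cartilage proteoglycan Acan (28.2 ± 1.53 CPM to 7.29 ± 2.16 CPM) were among the 15 largest falls.

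Most macrophage markers rose. Of 13 macrophage markers, 9 rose and none fell, with a median of 0.74, and their sum went from 186.5 to 201 CPM at 1W to 329 to 379 CPM at 2W. Cd163, a scavenger receptor of tissue macrophages, stood between 3.92 and 4.79 CPM at 1W and between 16.9 and 22.0 CPM at 2W (2.24 ± 0.29, adjusted p = 5.7e-06). It is among the 15 largest rises, which had to show no overlap. Lyz2, lysozyme, had 21.3, 23.9 and 20.6 CPM at 1W and 51.5, 62.1 and 46.6 CPM at 2W (1.28 ± 0.11, adjusted p = 1.5e-10). Cx3cr1 (0.06 ± 0.15, adjusted p = 0.8) and Timd4 (0.66 ± 0.62, adjusted p = 0.46) were not called. Of 21 antigen presentation genes, 9 rose and none fell (median 0.55), among them the class II chain Cd74, with 4.72, 5.71 and 4.27 CPM at 1W and 14.7, 13.7 and 12.4 CPM at 2W (1.47 ± 0.20). Of 33 interferon response genes, 16 rose and none fell (median 0.67, or 0.38 with 10 rises and no falls by library size alone). Rsad2 had 8.64, 6.29 and 7.88 CPM at 1W and 22.8, 18.4 and 26.9 CPM at 2W (1.58 ± 0.17, adjusted p = 2.7e-08) and Ifit3 2.62, 1.38 and 1.05 CPM at 1W and 6.04, 4.80 and 4.22 CPM at 2W (1.59 ± 0.29). Of 10 granulocyte and mast cell markers, 4 fell and none rose, and their sum went from 17.7 to 22.1 CPM at 1W to 8.47 to 9.24 CPM at 2W. No B cell or erythroid marker was called, of 10 and 13 tested.

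Markers of the other heart cells were mixed, and of all genes tested 15.5% rose and 14.1% fell. Of 12 cardiomyocyte markers, 6 rose and 1 fell (median 0.32, or 0.034 with 1 rise and 3 falls by library size alone). Of 13 fibroblast markers, 7 rose and 3 fell (median 0.40, or 0.11 with 2 rises and 6 falls by library size alone). Gsn, gelsolin, had 269.9, 259 and 265 CPM at 1W and 605, 673 and 719.6 CPM at 2W (1.33 ± 0.09, adjusted p = 1.3e-12) and the receptor Pdgfra rose by 0.58 ± 0.11, while Tcf21 fell (-0.57 ± 0.15). Of 14 endothelial markers, 6 rose and none fell (median 0.17, or -0.12 with 3 rises and 2 falls by library size alone), with Ptprb at 0.79 ± 0.09 and Flt1 at 0.50 ± 0.09. Of 11 markers of pericytes and smooth muscle, 3 rose and 2 fell (median 0.06, or -0.23 with 1 rise and 4 falls by library size alone, and 0.028 without 2W replicate 1 and -0.036 without 2W replicate 2 and 0.16 without 2W replicate 3), and the pericyte gene Rgs5 had 402, 390.4 and 397 CPM at 1W and 969.9, 966 and 1013 CPM at 2W (1.31 ± 0.11, adjusted p = 9.5e-11). Of 10 endocardial and valve markers, 7 fell and 1 rose (median -0.56). Of 12 epicardial markers, 5 fell and 1 rose (median -0.34). Summed lung markers stayed at or under 1.11 CPM in all 6 libraries. The share of the muscle, matrix and metabolic changes that follows from such shifts in cell makeup was not tested.

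**Figure D5:**
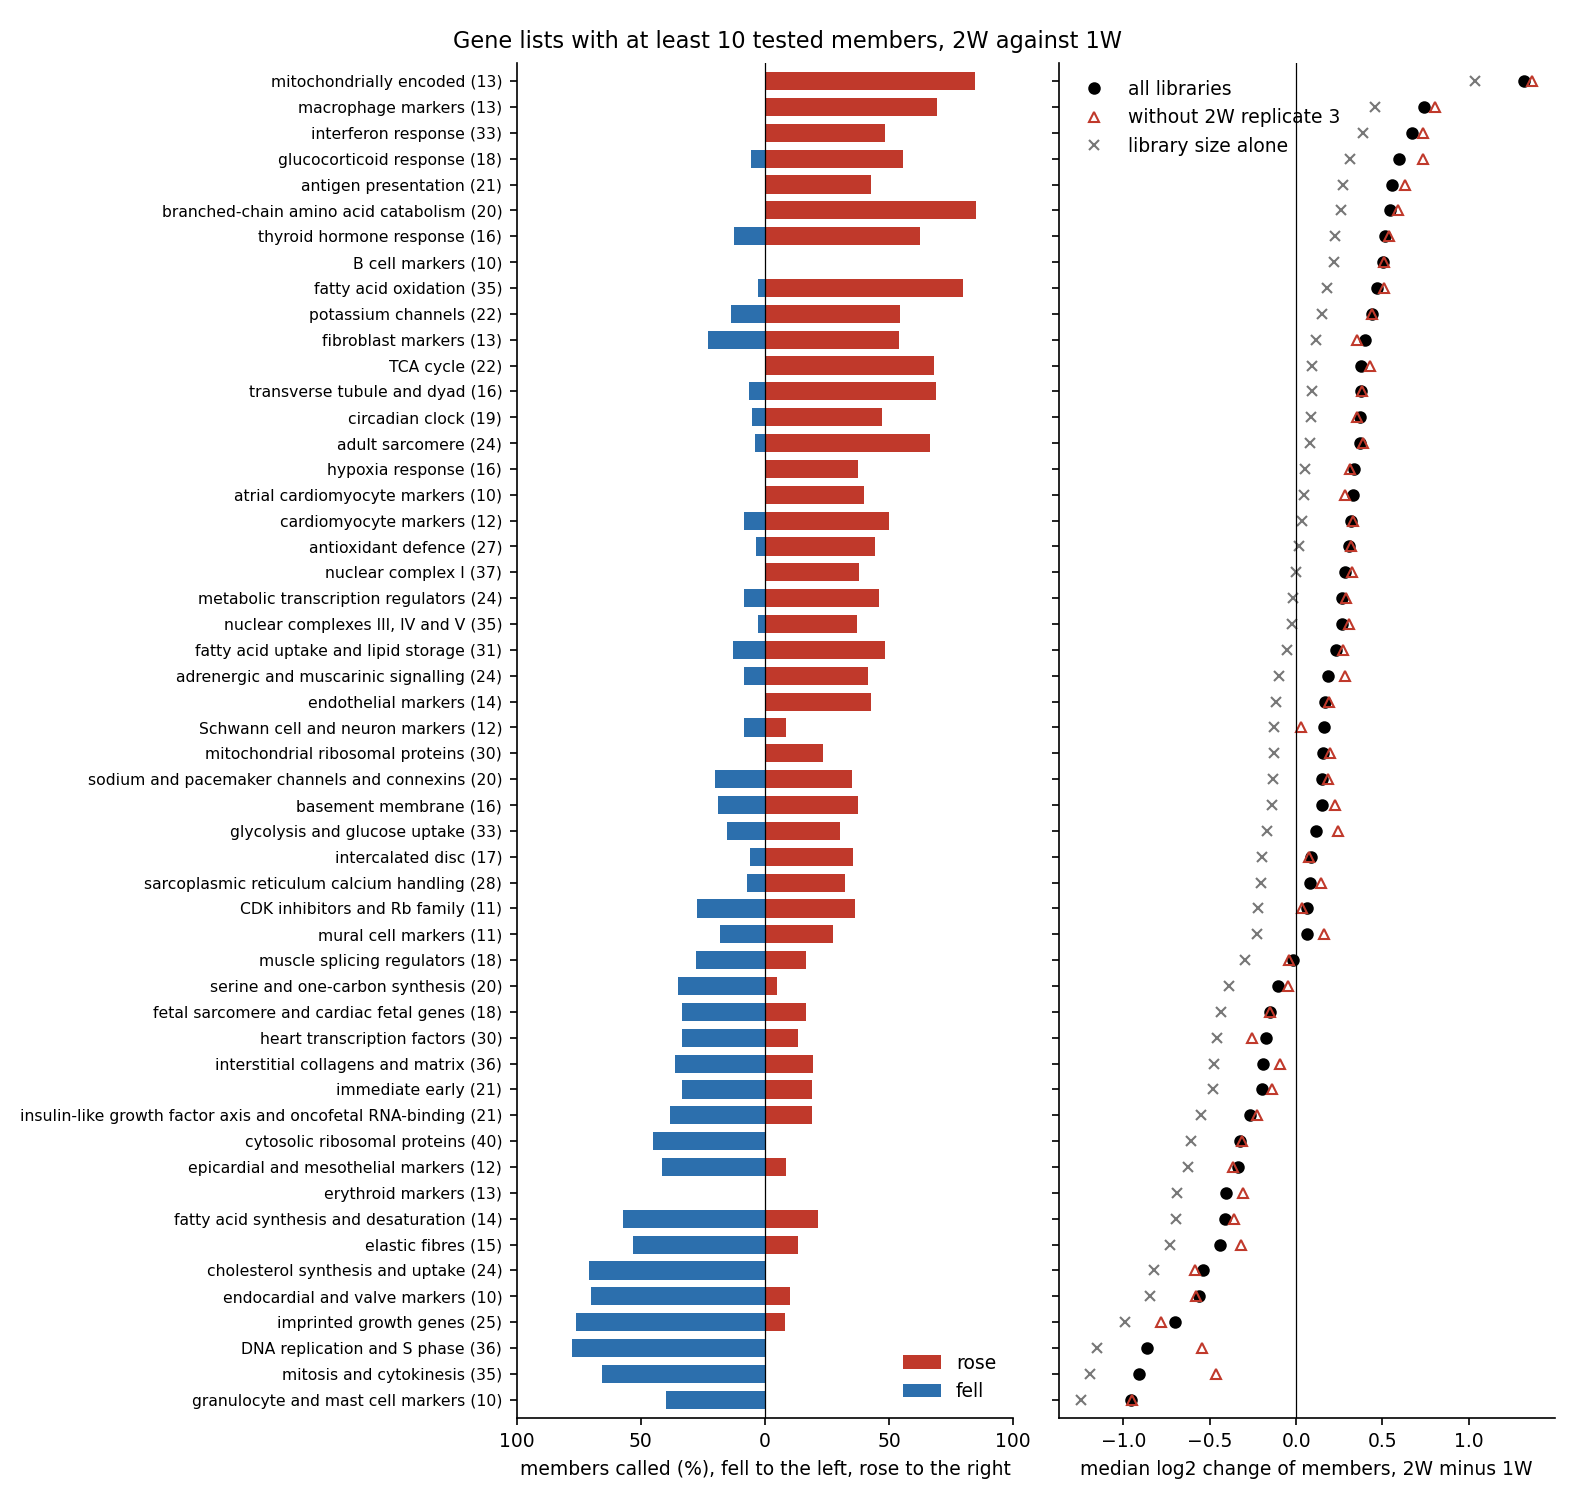
The left panel gives, for each list with at least 10 tested members (number in brackets), the percent of members that fell (blue, to the left) and rose (red, to the right). The right panel gives the median log2 change of the members with all libraries (black), without 2W replicate 3 (red triangles) and with library size alone (grey crosses), and the medians of DNA replication and of mitosis move from -0.86 to -0.55 and from -0.91 to -0.47 without that library.

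The remaining large changes were spread over other functions. Art1 (an ADP-ribosyltransferase of muscle, with 6.04, 4.30 and 4.19 CPM at 1W and 42.9, 41.5 and 35.2 CPM at 2W) overlaps Chrna10 and Art5, so its count is uncertain (3.05 ± 0.17, adjusted p = 2.6e-13). Ces1d, a carboxylesterase, had 3.20, 4.12 and 3.18 CPM at 1W and 22.7, 16.0 and 26.0 CPM at 2W (2.62 ± 0.19). Xdh, xanthine dehydrogenase of purine breakdown, had 6.79, 5.21 and 5.15 CPM at 1W and 28.6, 31.8 and 36.9 CPM at 2W (2.51 ± 0.38, adjusted p = 5.4e-05). The repressor Bcl6 had 4.19, 4.93 and 4.21 CPM at 1W and 17.4, 23.9 and 14.4 CPM at 2W (2.06 ± 0.20), and Lrrc2, a leucine-rich repeat protein, had 22.3, 18.8 and 24.4 CPM at 1W and 100.4, 118 and 66.0 CPM at 2W (2.12 ± 0.24). Prune2, Rp1, Shld1 and mt-Nd4l were also among the 15 largest rises, with changes of 2.48 ± 0.17, 2.31 ± 0.35, 2.24 ± 0.18 and 2.19 ± 0.55. Among the falls, Vash2, a vasohibin, had 20.8, 19.4 and 21.4 CPM at 1W and 4.53, 3.37 and 5.12 CPM at 2W (-2.24 ± 0.15, adjusted p = 1.6e-12) and the RNA-binding protein Mex3a 13.4, 12.8 and 15.7 CPM at 1W and 3.30, 2.78 and 3.28 CPM at 2W (-2.16 ± 0.22). Tubb2b, a beta tubulin with close paralogs, had 32.2, 41.9 and 39.0 CPM at 1W and 8.35, 12.0 and 7.72 CPM at 2W (-2.01 ± 0.14). Prss35, Lpar3, Clca3a1 and Spon2 complete the 15 largest falls, with changes of -2.24 ± 0.16, -2.05 ± 0.17, -2.02 ± 0.12 and -1.98 ± 0.27.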

How the data were processed

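Poly(A)-selected RNA of mouse hearts was sequenced in 30 libraries, 3 at each of 10 ages, and the 3 libraries of 2W were compared with the 3 of 1W. The authors deposited 1 table of estimated counts (expected counts) per gene for all samples, with no normalization. RNA was extracted with a phenol-based reagent and libraries were read on a NovaSeq instrument, per the labels' protocols. Per the submitters' processing notes, the tools fastp 0.18.0 and STAR 2.5.3a were used, and GRCm38 and mm10 are named as builds. How reads were counted, against which annotation and with or without strand, is not given in the sources used here. Overlapping, antisense and paralogous genes are therefore uncertain.

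Of the deposited counts, 6.94% of values were not whole (tolerance 1e-06), and all were rounded. Of 48820 genes, 48144 had a symbol and place in GENCODE M21 by identifier. The others, with 0.225% of the counts, were kept under their identifiers and went through the same filter, scaling and tests. Library totals were 23164941 to 50519457. Tests were made with edgeR 4.0.16 in R 4.3.3 (filterByExpr, TMM, robust quasi-likelihood F test, Benjamini-Hochberg adjustment). One fit held all 30 samples as 10 group means and left 20 residual degrees of freedom. Each standard error was taken as the size of the log2 change over the root of its F statistic. On simulated counts of the same design, 77.6% of genes changed 1.5-fold and 95.5% of those changed 2-fold were recovered. There were 10 false calls among 18371 genes. The changed genes were drawn from the better expressed ones, so recovery of low genes was not measured. Far fewer genes were changed than were called in the data, and no library was made to stand apart. Each gene had the same mean share of counts at all ages, apart from the changed genes at 2W. No shift in composition like that of the mitochondrial transcripts was built in, so the effect of scaling was not measured.

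The comparison, the 61 gene lists and the tests were chosen with earlier results of these data known. Lists are described by counts and medians, with no test. Some genes are in several lists, such as Ttn among the adult sarcomere genes and the cardiomyocyte markers, so the lists are not independent. Named genes are the 15 largest rises and falls, up to 6 called members per list with the largest changes, both members of pairs and a fixed panel. Values are also given for other list members, and some genes that the rule names are not reported here. The large rises and falls had to be called with and without 2W replicate 3, to reach a mean of 10 CPM at one of the ages, to show no overlap between the ages and to carry a gene symbol other than a model name. Shares within pairs are percentages of summed counts. Promoter windows came from a RefSeq table for GRCm38.p6, matched by symbol, with genes of chromosome 18 left out. Alternatives were RLE, upper quartile or library size scaling, no filter or a stricter one, mitochondrial and globin genes left out, DESeq2 1.42.0, the 6 samples alone, a replicate block, a term for sex-linked transcripts and each library left out. The 6 samples without 2W replicate 3 were chosen after seeing the data.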

Additional observations from a re-analysis of the deposited data

How the results depend on the processing

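Under RLE or upper quartile scaling, no filter or a stricter one, mitochondrial and globin genes left out, DESeq2, a sex term, the 6 samples alone, and those without 2W replicate 3 (an alternative chosen after seeing the data), the counts stayed within 1.5 times those reported, at 2555 to 3348 rises and 1836 to 3101 falls. Library size alone gave 1131 rises and 6985 falls. Without each library in turn there were 2473 to 2804 rises and 2081 to 2591 falls. Of 190 genes named, 154 had the same call and direction under every alternative, none reversed, and 4 changed call without 2W replicate 3. The named genes were chosen largely for being called, and the 15 largest rises and falls had to stay called without that library. Their stability is therefore no measure for all genes. Of all 5708 calls, 1062 were not made without 2W replicate 3. Library size alone also ended the calls of Rb1, Flt1, Esrrg and Dcn, and the 6 samples alone those of Rbl1, Sox4 and Acta1.

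Same-numbered libraries of 1W and 2W deviated from their group means with correlations of -0.334, 0.136 and -0.057 over 14029 genes. Differently numbered libraries gave -0.254 to 0.25. Whether the replicate numbers pair the samples cannot be told from 3 libraries per age. A fit with the replicate block gave 3066 rises and 2808 falls.

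Medians turned negative with library size alone for the CDK inhibitor list (-0.22), calcium handling (-0.20), sodium and pacemaker channels (-0.14), intercalated disc (-0.20), fatty acid uptake (-0.053), complex I (-0.0033), complexes III to V (-0.023), glycolysis (-0.17), metabolic regulators (-0.020), mitochondrial ribosomal proteins (-0.13), basement membrane (-0.14), adrenergic signalling (-0.10), endothelial (-0.12) and mural markers (-0.23). Without each library in turn, the CDK inhibitor median ran from -0.10 (without 2W replicate 2) to 0.083, that of glycolysis from -0.056 (without 2W replicate 2) to 0.24, that of mural markers from -0.036 (without 2W replicate 2) to 0.16 and that of mitochondrial ribosomal proteins from 0.018 (without 2W replicate 2) to 0.22. Library size alone lowered the median of all genes too, and the cause of the shifts without 2W replicate 2 was not tested. Changes of 1.5-fold were recovered less often in simulation (77.6%) than those of 2-fold (95.5%).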

Other observations

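Clustered histone genes, a group chosen after their values were seen, followed the replication genes. Of 64 tested, 55 fell and none rose, with a median log2 change of -1.56. Without 2W replicate 3, 43 fell and the median was -1.20. Their summed level was 3034, 4117 and 3541 CPM at 1W and 1223, 2000 and 882 CPM at 2W, so that the groups did not overlap. Their transcripts are mostly made without a poly(A) tail and are alike in sequence, so their counts in poly(A)-selected RNA are uncertain. Of the 169 genes more than 2-fold below both other 2W libraries in replicate 3, 24 were clustered histone genes.

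Of 21 immediate early genes, 7 fell and 4 rose (median -0.20), against 14.1% and 15.5% of all genes. Jun had 115, 164 and 155 CPM at 1W and 90.4, 74.9 and 63.9 CPM at 2W (-0.92 ± 0.14, adjusted p = 1.2e-05) and Fos 8.17, 12.1 and 9.74 CPM at 1W and 6.32, 3.07 and 4.67 CPM at 2W (-1.09 ± 0.32, adjusted p = 0.011), while Nr4a3 had 1.38, 2.34 and 2.82 CPM at 1W and 7.51, 6.82 and 10.5 CPM at 2W (1.91 ± 0.28). Fos was not called without 1W replicate 2 (-0.94) or 2W replicate 2 (-0.87). Of 16 hypoxia response genes, 6 rose and none fell (median 0.33, or 0.23 without 1W replicate 1). By library size alone 5 rose and 2 fell, with a median of 0.050. Epas1, the hypoxia-inducible factor of vessels, had 185, 207 and 202 CPM at 1W and 505, 564 and 486 CPM at 2W (1.39 ± 0.08, adjusted p = 1.5e-14), and Ddit4 had 12.1, 11.2 and 9.31 CPM at 1W and 33.8, 32.3 and 24.2 CPM at 2W (1.47 ± 0.14). Of 27 antioxidant genes, 12 rose and 1 fell (median 0.30, or 0.019 with 4 rises and 8 falls by library size alone, and 0.12 without 2W replicate 2), led by Sod3 (1.08 ± 0.19) and Gstm1 (1.02 ± 0.14).

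Replicate 2 of 2W was the highest of the 2W libraries for Acta1, Scn4b, Xirp2 and Col8a1, which were picked after their values were seen. There, 52 genes lay more than 2-fold above both other 2W libraries, against 2 in replicate 1 and 13 in replicate 3. Fat cell transcripts differed within 2W. Adipoq, the adipocyte hormone, had 0.993, 0.880 and 0.962 CPM at 1W and 0.199, 0.253 and 1.79 CPM at 2W, and Ucp1, the uncoupling protein of brown fat, had 7.67, 10.1 and 9.20 CPM at 1W and 1.63, 0 and 8.75 CPM at 2W. Neither was called (adjusted p = 0.75 and 0.46). For both, 2W replicate 3 was near or above the 1W libraries and the other 2W libraries were below them. Summed liver markers were 31.1 to 32.5 CPM at 1W and 45.2 to 54.7 CPM at 2W, and of 8 tested 2 rose and 5 had negative changes, with a median of -0.91. Without 2W replicate 3, 1 rose and 1 fell.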
